A study of Mus musculus with 8 samples.

Results

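The proteasome genes described here were the protein-coding mouse genes whose symbol starts with Psma, Psmb, Psmc, Psmd, Psme, Psmf or Psmg followed by a digit, apart from Psmb8, Psmb9 and Psmb10, the inducible catalytic subunits of the immunoproteasome. The rule found 47 of the 43629 genes in the count file. The series holds 8 RNA-seq libraries of 3T3-L1 adipocytes, fat cells made in culture from a mouse pre-adipocyte line, with 2 libraries in each of 4 groups. All cells came from the same line, were differentiated with insulin, dexamethasone, isobutylmethylxanthine and rosiglitazone, and were treated for 24 h from day 8 of differentiation. They were left untreated, or were given 2 μM A66, 0.5 mM palmitate conjugated to BSA, or both agents. A66 is an inhibitor of p110α, a catalytic subunit of PI3K that acts downstream of the insulin receptor, and palmitate is a saturated fatty acid. Doses and groups are those of the sample labels, whereas the published methods give a lower dose of A66 with DMSO as the vehicle. The labels name no culture with BSA alone, so palmitate and its carrier cannot be told apart.

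The proteasome degrades proteins tagged with ubiquitin. Its core particle is a barrel of 4 stacked rings, the outer ones built from the alpha subunits (Psma genes) and the inner ones from the beta subunits (Psmb genes), 3 of which carry the proteolytic sites. The regulatory cap sits on the end of the barrel. Its base holds the ring of Psmc ATPases that unfolds substrates, together with the large scaffold subunits and a ubiquitin receptor, and its lid holds the deubiquitinase Psmd14 with its partners. Dedicated chaperones assemble the core (Psmg genes) and the base (Psmd5, Psmd9 and Psmd10), and alternative activators (Psme genes) can replace the cap. In adipocytes, as in other cells, the supply of subunits is set largely by transcription, with the factor encoded by Nfe2l1 known to raise it when proteasome activity falls short.

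Of the 47 genes, 14 encode the core particle, 17 the cap and 13 assembly chaperones, activators or the inhibitor Psmf1. The others were Psma8 and Psmb11, the core subunits of testis and thymus, and Psmc3ip, a recombination factor that bears the name without being a subunit. Psma8 and Psmb11 had 0 counts in all 8 libraries, which allows at most 0.0521 to 0.0710 CPM (counts scaled to the library total) depending on the library, by the limit of 3 counts that a count of 0 allows. Psme2b, a copy of Psme2, had at most 2 counts in a library. The remaining 44 genes passed the filter on low counts, and were tested in every comparison.

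The libraries held 42247091 to 57529803 counts, of which the proteasome genes took 0.386% to 0.416%. The cells carried adipocyte markers at a summed 2596 to 3202 CPM per kilobase, with all 8 genes of the list (among them Adipoq, Fabp4 and Plin1) detected, and pre-adipocyte or fibroblast markers at 409 to 498. The macrophage list summed to 2.07 to 2.77 CPM per kilobase without palmitate and to 3.09 to 4.60 with it, nearly all of it from Cd68. Cd68 had means of 2.38 untreated, 2.36 under A66, 3.21 under palmitate and 4.43 under both agents. Csf1r had group means of 0.025 to 0.040, lowest under palmitate, and Adgre1 was at 0 in all libraries. The rise with palmitate was thus that of 1 gene. Endothelial and skeletal muscle markers stayed at or under 0.134. The part of these differences in the results was not tested. The untreated libraries stood apart from each other on proteasome genes more than the libraries of the other groups did. Around their own mean they lay at -0.053 and 0.053 log2 units for replicates 1 and 2 in the average over core subunits, at -0.027 and 0.027 over the cap and at -0.039 and 0.039 over assembly factors and activators, so comparisons with untreated cells are given with and without each of them. In bulk RNA, fewer cells of a type and less RNA per cell cannot be told apart.

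Levels of different subunits were set side by side as CPM per kilobase of all annotated exons of the gene. In untreated cells the core subunits ranged from 20.7 to 74.6, with a median of 37.4, and the cap subunits from 15.0 to 80.8, with a median of 31.5. Genes for assembly factors and activators were lower, with a median of 13.2 and a range of 1.09 to 50.3. The assembly chaperones reached at most 19.5, below the range of the core and within the lower end of that of the cap.

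In the alpha ring, Psma6 was highest at 74.6 ± 5.0 (SD, n = 2) and Psma2 lowest at 20.7 ± 1.5. In the beta ring, Psmb2 was highest at 58.2 ± 1.6 and Psmb5, which carries the chymotrypsin-like site, lowest at 27.5 ± 3.2. Psmb1 at 27.9 ± 1.4 did not differ from Psmb5 beyond their spread. In the base the scaffold Psmd2 led at 80.8 ± 3.5 and the ATPase Psmc2 closed the order at 23.8 ± 0.28. In the lid Psmd7 led at 62.5 ± 0.065 and Psmd11 was lowest at 15.0 ± 0.12. Among chaperones, Psmg1 reached 19.5 ± 1.1 and Psmg3, of another pair of core chaperones, only 1.09 ± 0.15, the lowest value of any tested proteasome gene on this scale. Psmd10 was the highest chaperone of the base at 12.2 ± 0.12 and Psmd9 the lowest at 2.85 ± 0.26. Of the activators, the nuclear Psme3 was highest at 50.3 ± 0.64, while the inhibitor Psmf1 stood at 6.42 ± 0.24.

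The order within a class depended on the length used. Scaled by the longest protein-coding transcript in place of all exons, Psmb6 was highest of all at 132 ± 2.6, Psma1 rose to the top of the alpha ring at 124 ± 6.0, and the median of the core was 77.8 against 51.2 for the cap. The ratio of the core median to the cap median, averaged over the untreated libraries, was 1.19 by all exons and 1.51 by the longest transcript.

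**Figure D1:**
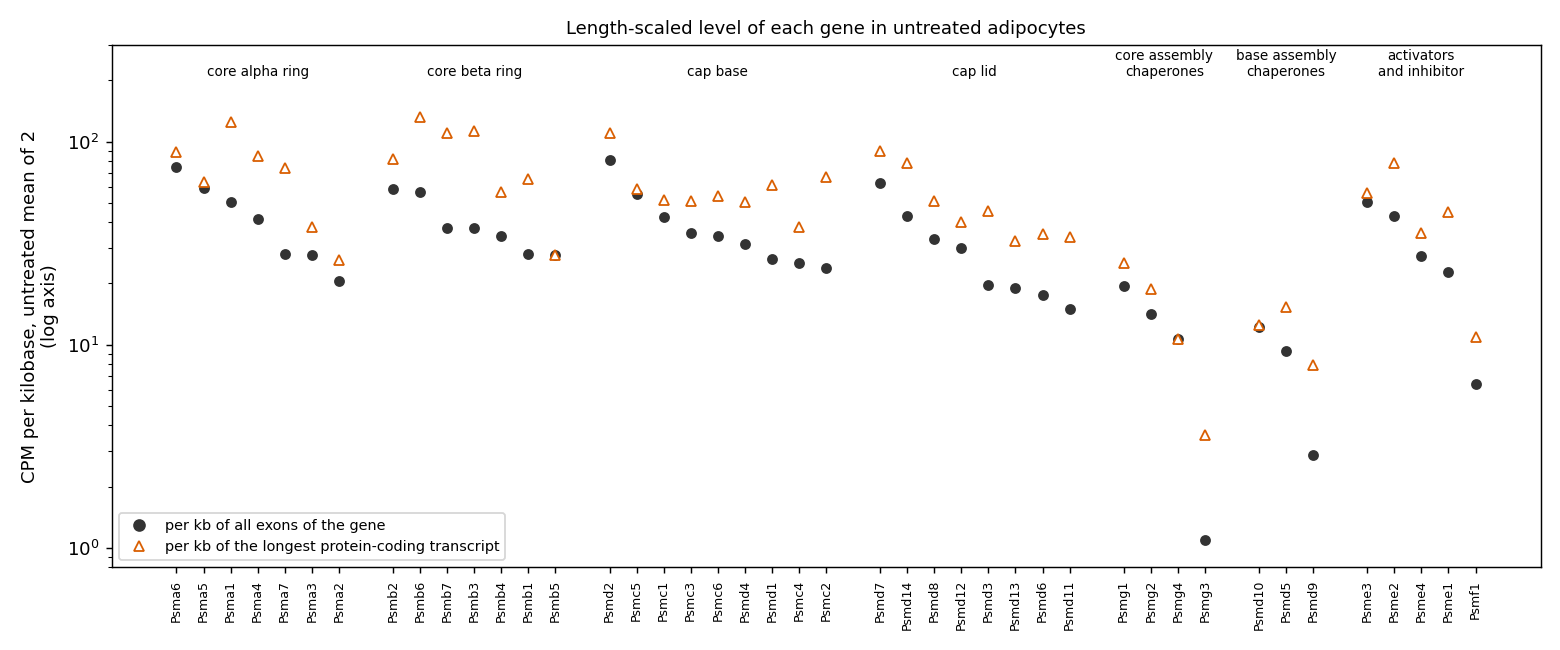
Level of each detected core, cap, assembly and activator gene in untreated adipocytes, as CPM per kilobase on a log axis, mean of 2 libraries. Filled circles use all exons of the gene and open triangles its longest protein-coding transcript. Core and cap genes lie at 15.0 and above by all exons, and Psmg3 is lowest at 1.09.

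The catalytic subunits of the constitutive core were compared with their inducible counterparts, which the naming rule leaves out. Psmb6, the caspase-like subunit, stood at 104 to 114 CPM across the 8 libraries and its counterpart Psmb9 at 1.16 to 2.07. Psmb7, the trypsin-like subunit, stood at 123 to 137 CPM and Psmb10 at 25.3 to 28.8. Psmb5 stood at 22.7 to 27.5 CPM and Psmb8 at 2.51 to 3.33. These CPM are not scaled by length, so they do not rank different subunits. Per kilobase of all exons, untreated means were 56.3 for Psmb6, 37.5 for Psmb7 and 27.5 for Psmb5. Their counterparts Psmb9, Psmb10 and Psmb8 had 0.35, 15.2 and 0.77. The constitutive subunit exceeded its counterpart in every library, and Psmb10 was the inducible subunit with the highest counts. None of these 6 genes passed the test in any comparison. For Psmb9 the untreated libraries had 1.39 and 1.16 CPM, those given A66 1.60 and 1.26, those given palmitate 2.07 and 2.07 and those given both 1.36 and 2.07. The palmitate libraries lay above the untreated ones, by 0.71 ± 0.24 on the log2 scale (edgeR quasi-likelihood test, adjusted p = 0.195).

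**Figure D2:**
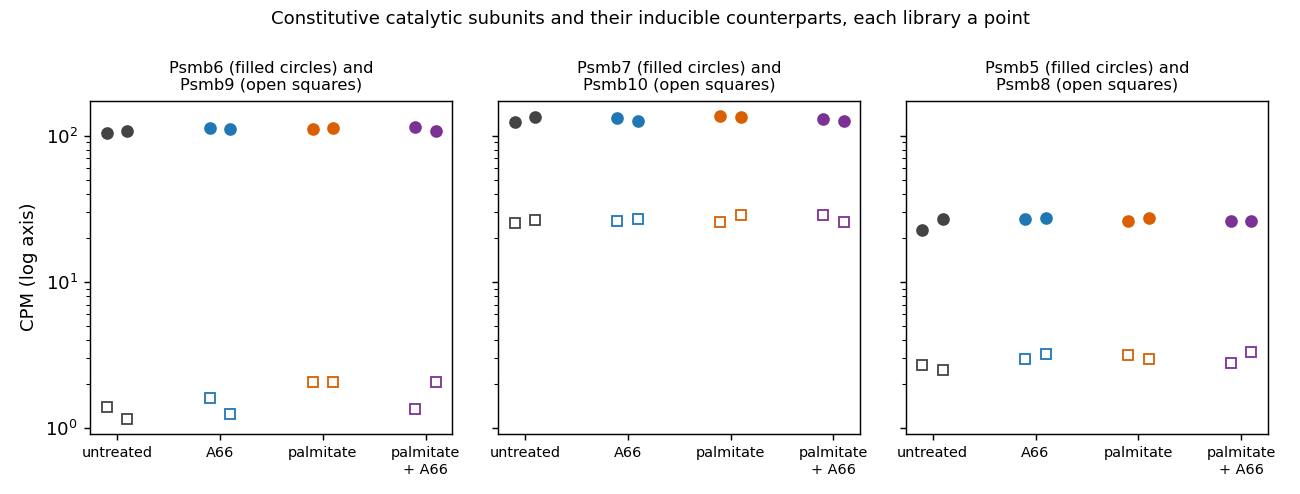
CPM on a log axis of each constitutive catalytic subunit (filled circles) and its inducible counterpart (open squares), 1 point a library, 2 libraries a group. Each constitutive subunit lies above its own counterpart in all 8 libraries.

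Palmitate alone was compared with untreated cells to see how the fatty acid moved the proteasome genes. No gene passed the test: 0 of 44 were called, against 1.17% of all 14587 genes tested (edgeR quasi-likelihood test, adjusted over all genes), and DESeq2 also called 0. At an unadjusted p under 0.05 there were 9 genes higher with palmitate and 0 lower, against 6.42% and 5.6% of all genes. Both palmitate libraries exceeded both untreated ones for 23 genes and lay below them for 3, against 20.4% and 20.2% of all genes. The fitted change lay above 0 for 40 of the 44 genes, against 50.2% of all genes tested, and the median change was 0.074 on the log2 scale, or 5.28%. The lean was shared by the 3 groups, with 13 of 14 core genes, 16 of 17 cap genes and 10 of 12 assembly factors and activators above 0, and with medians of 0.083, 0.060 and 0.075.

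The core gene with the smallest p was Psmb4, a beta subunit without a proteolytic site. It had 61.5 and 72.6 CPM in the untreated libraries and 75.5 and 75.7 with palmitate, a difference of 0.17 ± 0.057 log2 units (SE; edgeR adjusted p = 0.186). Its palmitate libraries agreed closely, whereas the untreated pair lay far apart and below them. In the alpha ring the leading gene was Psma7 at 0.13 ± 0.045. In the cap, the fitted change was 0.12 ± 0.046 for Psmc3, an ATPase of the base, and 0.13 ± 0.049 for Psmd13, a lid subunit. The core chaperone Psmg4 differed by 0.23 ± 0.13, the base chaperone Psmd5 by 0.081 ± 0.0465 and the activator Psme2 by 0.12 ± 0.054, and none of these adjusted p-values was under 0.186. Only Psma1, Psmc1, Psme1 and Psme3 had fitted changes below 0, from -0.0064 for Psmc1 to -0.086 for Psma1. Without untreated replicate 1 the median over all 44 genes was 0.045 and that of the core 0.024. Without replicate 2 they were 0.11 and 0.14, with Psmb4 and Psme2 called.

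A66 alone was compared with untreated cells to ask what blocking p110α did to the same genes. Again 0 of 44 were called, against 1.84% of the 14158 genes tested with these 4 libraries, by edgeR's quasi-likelihood test, and DESeq2 called 0. At an unadjusted p under 0.05, 3 genes were higher and 2 lower, against 6.57% and 6.24% of all genes. The A66 pair exceeded the untreated pair without overlap for 7 genes and lay under it for 6, against 20.3% and 22.3% of all genes, and 28 of 44 fitted changes lay above 0, against 49.6%. The groups split: 11 of 14 core genes lay above 0 with a median of 0.053 (0.025 with a length correction), but only 8 of 17 cap genes did, with a median of -0.011. Of the assembly factors and activators 9 of 12 lay above 0, with a median of 0.046. Psma7 had 83.2 and 88.0 CPM untreated and 96.3 and 90.9 with A66, so its libraries did not overlap, and the fitted difference was 0.13 ± 0.046 (adjusted p = 0.188).

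Other genes with the smallest p of their class were the catalytic Psmb6 (0.088 ± 0.042), the ATPase Psmc3 (0.077 ± 0.0455), the lid subunit Psmd7 (-0.093 ± 0.041), and the chaperones Psmg1 (0.098 ± 0.069) and Psmd5 (0.048 ± 0.046). Psmd7 stood at 141 and 141 CPM untreated and 134 and 131 with A66. Its A66 libraries were both below the untreated ones, but its adjusted p was 0.332. The activator Psme3 differed by -0.11 ± 0.041, with 149.7 and 147 CPM untreated and 137 and 138 with A66 (adjusted p = 0.246). Without untreated replicate 2, Psma7, Psmb4, Psmb5 and Psme2 were called higher and the core median was 0.12, and without replicate 1 it was -0.0069. The cap median was 0.034 without replicate 2 and -0.019 without replicate 1, and 0.012 averaged over palmitate states. The directions of the core and of the cap under A66 therefore rested on which untreated library was kept.

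Palmitate in the presence of A66 was compared with A66 alone. The untreated libraries are not compared here, though they share the fit and so enter its estimate of the spread. By edgeR's quasi-likelihood test 0 of 44 genes were called, against 2.73% of all 14587 genes, and DESeq2 called 1, Psmd11. At an unadjusted p under 0.05, 8 genes were higher and 2 lower, against 7.36% and 7.19% of all genes, and all 8 higher genes belonged to the cap. Of the 44 fitted changes 31 lay above 0, against 50.2% of all genes. In the cap, 16 of 17 genes lay above 0, with a median of 0.089 or 6.39%. Over all 44 genes the libraries with both agents lay above those with A66 alone, without overlap, for 20 and below them for 8, against 23.2% and 23.4% of all genes. For 14 of the 17 cap genes both libraries with palmitate and A66 exceeded both with A66 alone, and for 0 of the 17 both were lower. The core did not lean this way, with 8 of 14 genes above 0 and a median of 0.013, which ranged from -0.021 to 0.032 with 1 library left out. The test of a difference between the core and the cap would run over genes of the list, so these medians are given as a description.

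Psmd11, a scaffold subunit of the lid, had the smallest p. It had 89.2 and 93.0 CPM with A66 and 103 and 99.8 with palmitate and A66, which differed by 0.15 ± 0.043 (edgeR adjusted p = 0.058). The libraries of both groups did not overlap. Psmd14, the deubiquitinase that clips ubiquitin chains off substrates, had 120.2 and 118 CPM with A66 and 129 and 132 with both, a fitted difference of 0.13 ± 0.046 that did not pass the test (adjusted p = 0.138). The ATPases Psmc1, Psmc2 and Psmc6 each differed by 0.13, with SEs from 0.043 to 0.046 and adjusted p from 0.107 to 0.153. On the lower side stood Psma1 at -0.10 ± 0.046 and Psme2 at -0.11 ± 0.054 (adjusted p = 0.304 and 0.322). The smallest p of their classes also put Psmb1 at -0.051 ± 0.043, Psmd5 at 0.077 ± 0.047 and Psmg3 at -0.24 ± 0.16. With only the libraries of these 2 groups in the fit, Psmd11, Psmd14 and Psmc6 were called.

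**Figure D3:**
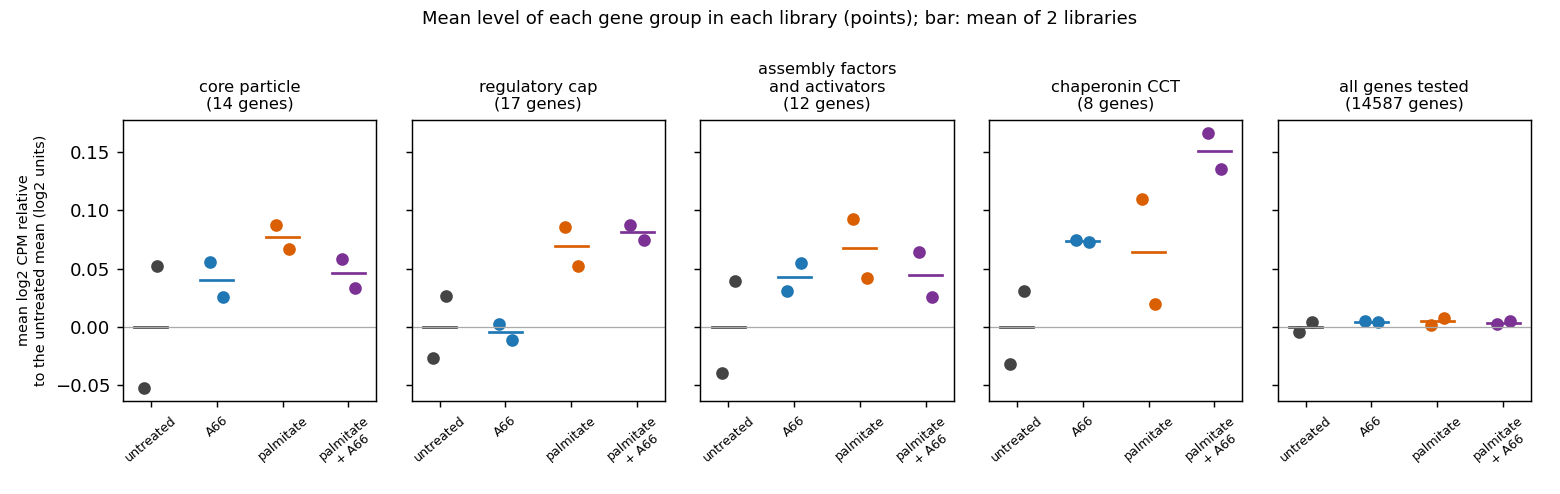
Mean over the genes of each group of the log2 CPM minus the untreated mean, 1 point a library, with a bar at the mean of 2. The 4 libraries with palmitate lie at 0.052 to 0.087 for the cap, above the 4 without palmitate at -0.027 to 0.027. All genes tested stay between -0.0041 and 0.0081.

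Library by library, the mean level of the 17 cap genes separated cells with and without palmitate. Relative to the untreated mean the A66 libraries lay at 0.0026 and -0.011 log2 units, between the untreated ones, whereas those given palmitate lay at 0.086 and 0.052 and those given both agents at 0.087 and 0.075. All 4 values with palmitate exceeded all 4 without it, with or without A66. The core did not separate in this way: its libraries lay at 0.055 and 0.025 after A66, 0.087 and 0.067 after palmitate and 0.058 and 0.034 after both, so that untreated replicate 2 exceeded 1 library of each A66 group. Averaged over cells without and with A66, which sets 4 libraries against 4 and was added after the data were seen, palmitate called 2 of 44 genes, against 5.05% of all genes. They were the lid subunits Psmd11, at 0.11 ± 0.030 (edgeR adjusted p = 0.0336), and Psmd14, at 0.11 ± 0.032 (adjusted p = 0.0482). In this average 41 of the 44 genes lay above 0, against 49.9% of all genes, and 17 were higher and 1 lower at an unadjusted p under 0.05, against 8.87% and 8.77%. The share called was not above that of all genes.

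A66 added to palmitate was compared with palmitate alone. By edgeR's quasi-likelihood test 0 of 44 genes were called, against 2.81% of all 14587 genes, and DESeq2 called 0. At an unadjusted p under 0.05, 2 genes were higher and 4 lower, against 6.79% and 7.61% of all genes. The fitted changes lay on both sides of 0, with 19 above, against 49.7% of all genes, and a median of -0.0042. For 8 genes both libraries with A66 lay above both without it and for 10 below, against 21.9% and 22.4% of all genes. All 7 beta ring genes lay below 0, from -0.011 to -0.11, and 4 of the 7 were among those 10. Psmb3, a beta subunit without a proteolytic site, had 95.2 and 93.5 CPM with palmitate and 89.4 and 85.1 with both agents, a difference of -0.11 ± 0.046 (adjusted p = 0.242). In the opposite direction stood Psmd8, a lid subunit, at 104 and 106 CPM with palmitate and 119 and 115 with both, a difference of 0.15 ± 0.046 (adjusted p = 0.0803). The ATPase Psmc2 stood at 0.095 ± 0.043 and Psma1 at -0.076 ± 0.046, the chaperones Psmg1 and Psmd9 at 0.074 ± 0.064 and -0.12 ± 0.080, the activator Psme2 at -0.12 ± 0.054 and the recombination factor Psmc3ip at -0.23 ± 0.084. Averaged over cells without and with palmitate, a setting added after the data were seen, A66 called 0 of 44 genes, against 4.97% of all genes, with 2 genes higher and 5 lower at an unadjusted p under 0.05, against 8.51% and 9.35%, and 25 fitted changes above 0, against 48.9%. The smallest p belonged to Psmd8 (0.11 ± 0.033, adjusted p = 0.0545).

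Cells given both agents were compared with untreated cells. Here 6 of 44 genes (13.6%) passed edgeR's quasi-likelihood test, 5 higher and 1 lower, against 7.5% of all 14587 genes, 3.79% higher and 3.71% lower. They were Psmd8 of the lid, the ATPases Psmc2 and Psmc6 of the base, and Psma7, Psma5 and Psma1 of the alpha ring. Only Psma1 was lower. No beta subunit, chaperone or activator passed. At an unadjusted p under 0.05, 12 genes were higher and 1 lower, against 10.4% of all genes in each direction. Over all 44 genes, 34 lay above 0, against 49.8% of all genes, with a median of 0.060, or 4.27%. For 18 both treated libraries lay above both untreated ones and for 4 below, against 24.4% and 25.3% of all genes. Smallest p-values in classes without a call belonged to Psmb6 (0.065 ± 0.043), Psmg1 (0.14 ± 0.065), Psmd5 (0.12 ± 0.047) and the activator Psme4 (0.099 ± 0.041). The cap median was 0.077, or 0.051 and 0.11 without untreated replicate 1 and 2. The core median was 0.026, or -0.0072 and 0.091 without them and -0.0029 when scaled by library size alone, so its direction was not stable.

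Psmd8 (chr7:29174188-29180701, minus strand, GRCm38) had 96.6 and 106 CPM untreated, 106 and 107 under A66, 104 and 106 under palmitate and 119 and 115 under both agents. The libraries with both agents lay above the other 6, and against untreated cells the rise was 0.20 ± 0.047 log2 units or 14.8% (edgeR adjusted p = 0.00942). Psmd8 helps to lock the lid onto the base. Psmc2 (chr5:21785283-21803787, plus strand) had 118 and 121 CPM untreated, 121 and 122 under A66, 128 and 121 under palmitate and 130.2 and 136 under both agents. It rose by 0.15 ± 0.043 or 11.3% (adjusted p = 0.0286), again with both combined libraries above the rest. Psmc6 (chr14:45329788-45349705, plus strand) had 120.2 and 120.1 CPM untreated, 122 and 119.6 under A66, 129 and 119.97 under palmitate and 134 and 131 under both agents. Its rise was 0.14 ± 0.044 or 10.3% (adjusted p = 0.0496), just under the threshold of 0.05. Psmc2 and Psmc6 belong to the same ring of ATPases.

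Psma7 (chr2:180036374-180042433, minus strand) had 83.2 and 88.0 CPM untreated, 96.3 and 90.9 under A66, 94.6 and 92.4 under palmitate and 97.7 and 97.2 under both agents. Every treated library exceeded both untreated ones, and the combined treatment raised it by 0.19 ± 0.045 or 13.8% (edgeR adjusted p = 0.0120). Psma5 (chr3:108256926-108279974, plus strand) had 74.9 and 80.8 CPM untreated, 83.7 and 80.0 under A66, 85.2 and 82.4 under palmitate and 87.6 and 85.9 under both agents. It was higher by 0.15 ± 0.047 or 11.3% (adjusted p = 0.0453), and only 1 A66 library overlapped the untreated pair. Psma1 (chr7:114264606-114276118, minus strand) went the other way. It had 144 and 154 CPM untreated, 149 and 137 under A66, 141 and 139.8 under palmitate and 132 and 134 under both agents, and fell by 0.16 ± 0.046 on the log2 scale (adjusted p = 0.0345). Psma1 was also the proteasome gene with the lowest fitted change in the palmitate comparison. They encode neighbours in the ring that gates the entry of substrates, so members of 1 ring moved in opposite directions.

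These 6 calls depended on single libraries and, for 3 of them, on the processing. Without untreated replicate 1 only Psma1 was called, without untreated replicate 2 there were 7 calls, all higher, among them Psmd8, Psma7 and Psma5. Without replicate 1 of palmitate plus A66 there was 0, and without its replicate 2 only Psmd8. Over the 8 fits that leave out 1 library each, Psmd8 passed in 6, Psma7 and Psma1 in 5, Psmc2 in 4, Psma5 in 3 and Psmc6 in 2. Scaled by library size alone, 3 genes passed (Psmd8, Psma7 and Psma1). Psmc2 and Psmc6 were lost with a GC correction, Psma5 and Psmc6 with a length correction and Psma5 with the replicate block, whereas Psmd8, Psma7 and Psma1 passed in all 11 alternatives that keep every library of the groups compared. The counting strand is not known, and Psmb7, Psmc3, Psmd13 and Psmc3ip share 11.8%, 8.25%, 10.1% and 21.2% of their exon bases with an expressed gene on the opposite strand (Nek6, Slc39a13, Sirt3 and Mlx), so their values are uncertain. Mlx had 2696 mean counts against 696 for Psmc3ip. None of the 6 genes shares exons with another gene of more than 2.75 mean counts, and annotated pseudogene copies held at most 0.395% of the counts of any tested proteasome gene.

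**Figure D4:**
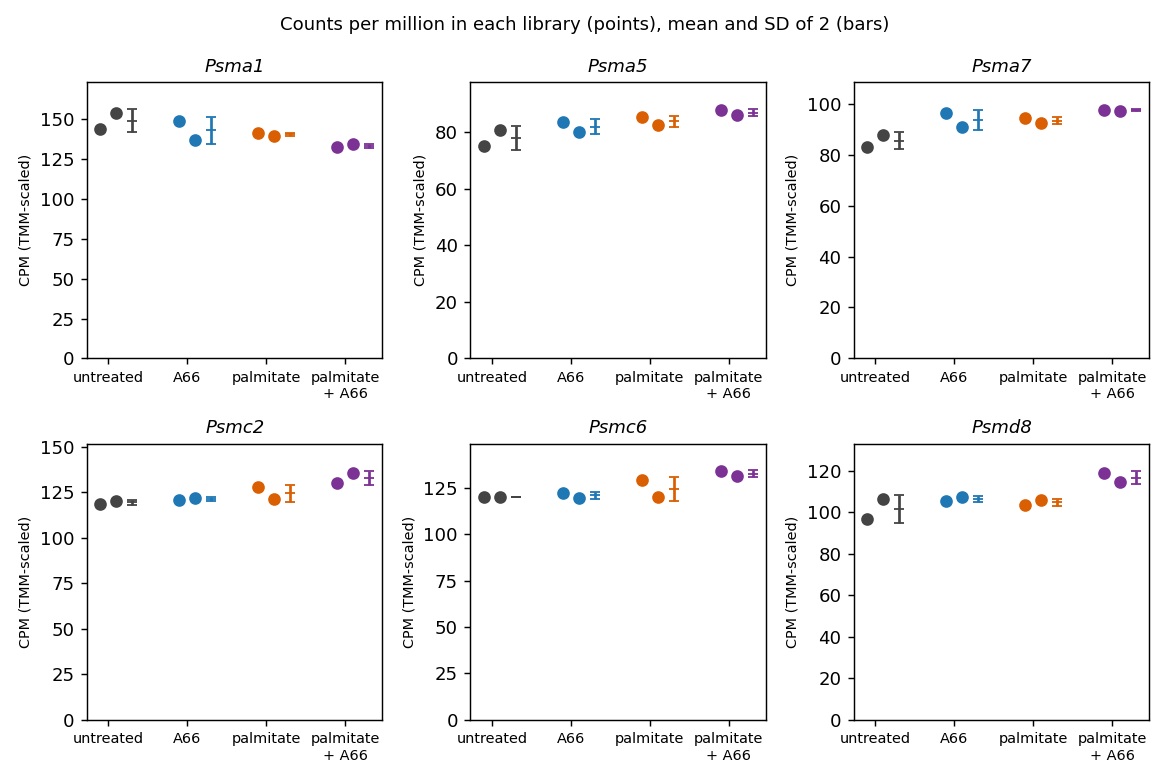
CPM of the 6 genes that passed the test between palmitate plus A66 and untreated cells, 1 point a library, with the mean and SD of 2 beside them, on axes that start at 0. Psmd8, Psmc2 and Psmc6 are highest in both libraries with both agents, and Psma1 is lowest there.

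**Figure D5:**
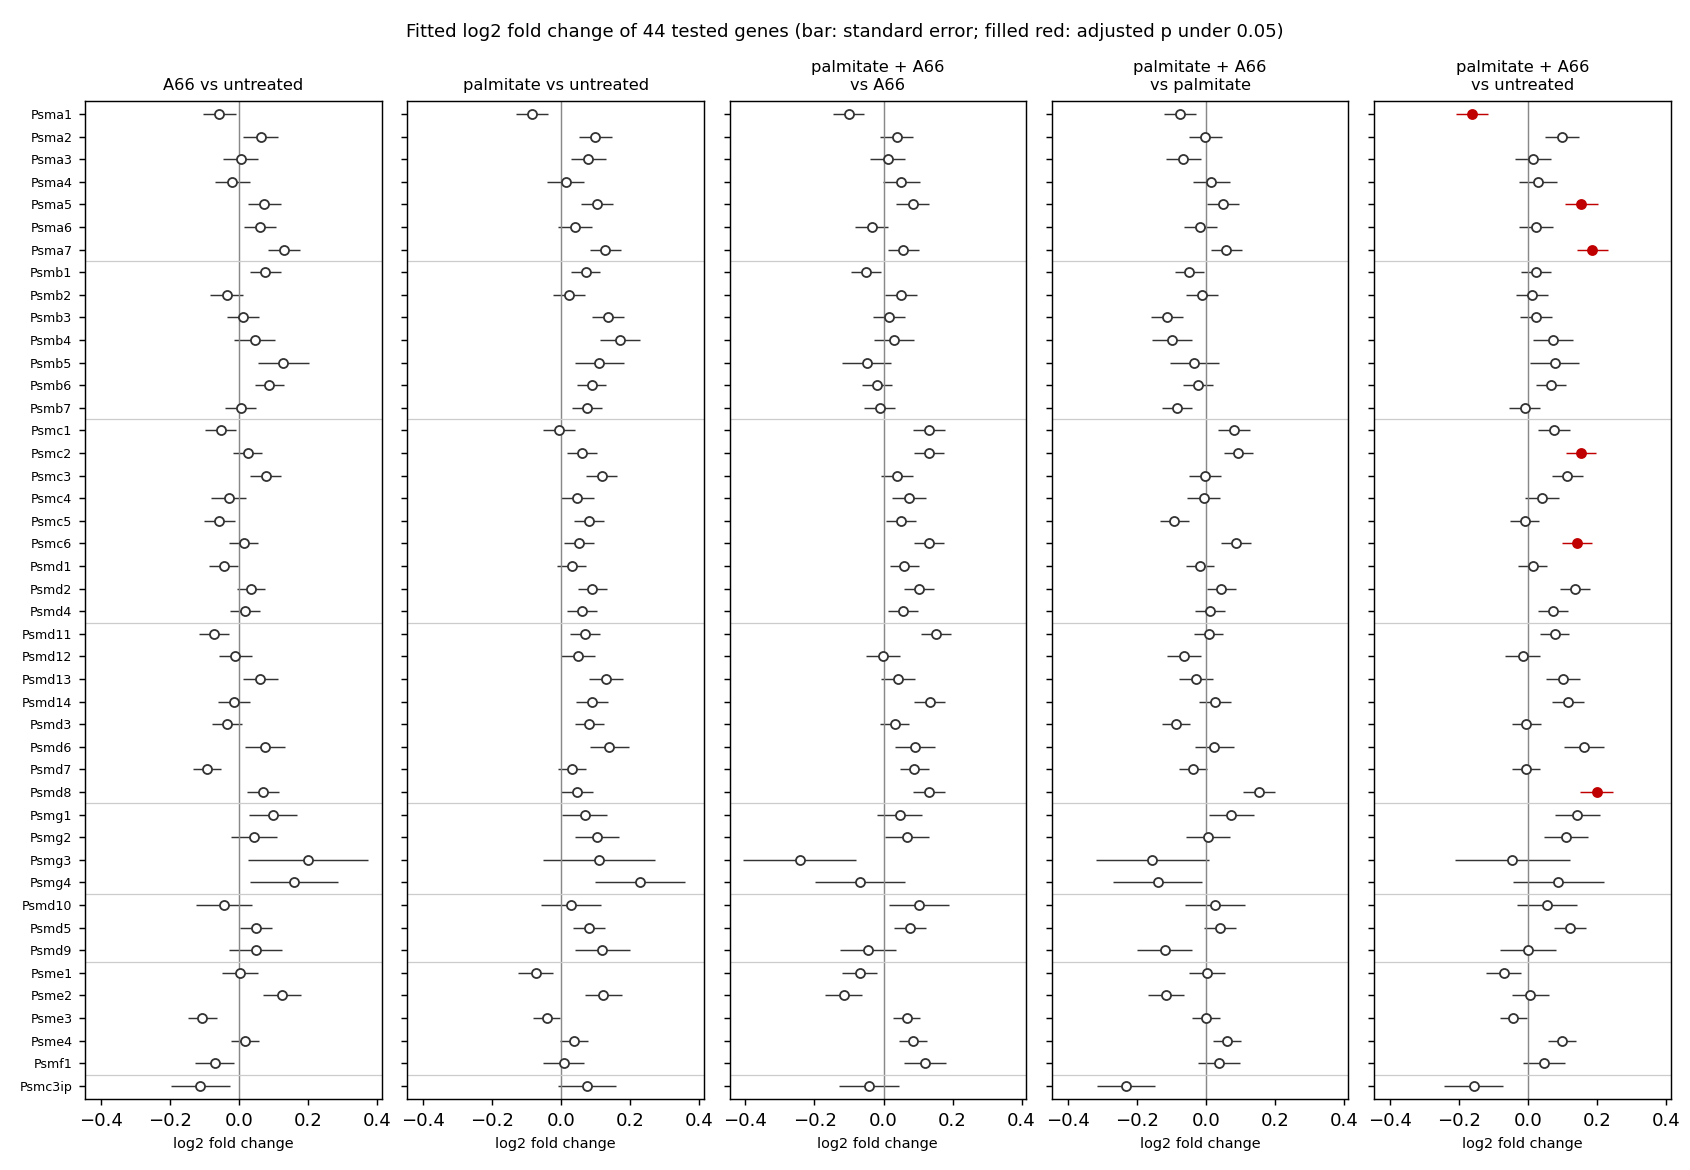
Fitted log2 fold change (point) and standard error (bar) of the 44 tested genes in 5 comparisons, ordered by class, with genes of adjusted p under 0.05 filled in red. The 6 red points are in the comparison of both agents with untreated cells. The comparisons share libraries and are not independent.

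The test of whether the effect of A66 differs between cells without and with palmitate called 0 of 44 genes by edgeR, against 0.00686% of all genes, and DESeq2 called 0. At an unadjusted p under 0.05 it gave 1 higher and 1 lower, against 3.56% and 4.35% of all genes, and 17 of 44 estimates lay above 0, against 50.6%. The lower one was Psme2, a subunit of the activator that interferon induces, with 70.2 and 80.8 CPM untreated, 84.2 and 80.3 under A66, 81.8 and 82.8 under palmitate and 74.3 and 77.6 under both agents. Of the 4 libraries with 1 agent, 3 lay above both untreated ones, and both libraries with 2 agents lay between the untreated ones. The interaction was -0.24 ± 0.076 (unadjusted p = 0.00501, adjusted p = 0.437). The higher one was Psmc1, at 0.14 ± 0.066 (adjusted p = 0.626). In the core 12 of 14 interaction estimates lay below 0 with a median of -0.071, and in the cap 7 of 17 did with a median of 0.027.

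The 6 called genes moved together only in part, and their promoters were read to describe what they share. Windows from 250 bases before to 50 bases after a RefSeq start (GRCm38.p6) were found for 39 of the 47 genes, and 6 motifs were searched on both strands. The antioxidant response element, read by Nfe2l1 and Nfe2l2, was searched as TGACNNNGC, the CCAAT box as CCAAT, the ETS core as CCGGAAG, the GC box as GGGCGG, the cyclic AMP response element as TGACGTCA and the heat shock element as GAANNTTC. No motif contains another, though neighbouring matches may overlap. Windows of 3 of the 6 genes are printed as examples that hold matches, of genes that rose (Psma7, Psmc6) or fell (Psma1) with both agents. Among the rest, Psma5 held none of the 6 motifs, Psmd8 held 1 GC box, and Psmc2 held an ETS core at each of its 2 starts and a CCAAT box at 1 of them. They run 5′ to 3′ on the strand of the gene and end at the base before the start, with antioxidant, CCAAT and ETS matches in capitals.

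Psma1, chr7:114276117-114276366, minus strand: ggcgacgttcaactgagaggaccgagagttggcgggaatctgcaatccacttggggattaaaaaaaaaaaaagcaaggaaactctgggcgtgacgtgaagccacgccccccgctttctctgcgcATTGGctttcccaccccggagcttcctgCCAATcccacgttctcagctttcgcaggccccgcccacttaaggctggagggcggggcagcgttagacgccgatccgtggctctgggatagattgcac
Psma7, chr2:180042465-180042714, minus strand: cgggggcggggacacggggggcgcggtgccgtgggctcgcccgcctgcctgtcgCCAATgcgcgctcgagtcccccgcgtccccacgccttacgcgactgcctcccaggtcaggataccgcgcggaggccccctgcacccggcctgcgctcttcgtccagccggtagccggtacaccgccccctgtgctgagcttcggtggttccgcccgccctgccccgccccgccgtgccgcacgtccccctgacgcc
Psmc6, chr14:45329574-45329823, plus strand: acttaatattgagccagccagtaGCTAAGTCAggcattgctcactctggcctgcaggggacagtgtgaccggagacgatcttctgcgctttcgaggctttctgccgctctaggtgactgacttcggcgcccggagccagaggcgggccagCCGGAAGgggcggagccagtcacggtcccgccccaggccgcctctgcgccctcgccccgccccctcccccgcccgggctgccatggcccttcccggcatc

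Of the called alpha ring genes, Psma7 held 1 CCAAT box, Psma1 held 2 and Psma5 held 0, and none held the other 2 motifs marked, so no motif was shared by all of them. Psmc6 held a match to the antioxidant response element at bases -227 to -219 and an ETS core at -100 to -94, counted back from the start. Over the 39 genes the antioxidant response element occurred in 15.4%, against 14.0% of the 27025 mouse genes with such a window. The ETS core occurred in 38.5% of the proteasome genes against 9.93% of all genes with a window. By class it was in 64.3% of the cap genes (9 of 14), 33.3% of assembly factors and activators and 9.09% of the core genes (1 of 11). The genes with a window were not limited to those expressed in these cells, and shares among expressed genes were not measured. The CCAAT box went the other way, at 54.5% of core genes and 28.6% of cap genes against 41.1% of all. GC boxes were in 56.4% against 38.2%, with 71.4% of cap genes, 58.3% of assembly factors and activators and 45.5% of core genes. Heat shock elements were in 5.13% against 9.04% and cyclic AMP response elements in none of the 39 against 2.03%.

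The ETS matches of the cap genes are shown because that motif was the most unequal between the cap and the core, the classes whose levels differed in their separation by palmitate. Each is written on the strand that reads CCGGAAG, with the match in capitals and 8 bases on either side.

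Psmc1, chr12:100110166-100110188, minus strand: cgccaccgCCGGAAGtgcatcca
Psmc2, chr5:21785183-21785205, minus strand: gccccatcCCGGAAGtgctcact
Psmc2, chr5:21786715-21786737, minus strand: cttccccaCCGGAAGtagctccg
Psmc6, chr14:45329716-45329738, plus strand: cgggccagCCGGAAGgggcggag
Psmd2, chr16:20651618-20651640, minus strand: cctccagaCCGGAAGcgccctgc
Psmd4, chr3:95042725-95042747, minus strand: cagctgttCCGGAAGctgctgcg
Psmd6, chr14:14120976-14120998, minus strand: agacgcgaCCGGAAGtcagactg
Psmd11, chr11:80428596-80428618, minus strand: acacacacCCGGAAGacccgccc
Psmd12, chr11:107479503-107479525, minus strand: cactcgcaCCGGAAGtcgcccgc
Psmd13, chr7:140882380-140882402, plus strand: ccgcggtgCCGGAAGtgagcgag

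Psmc2 has a match at each of 2 annotated starts. The matches lie close to the start, from bases -125 to -119 in Psmd4 to the match of Psmd13, which spans the start itself. Of these genes, Psmc2 and Psmc6 passed the test with both agents, and Psmd12 had a fitted change of -0.016 in that comparison. A match is a description of the letters and not a binding site.

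Among genes that work with the proteasome but lie outside the naming rule, Zfand2a changed most. It encodes a zinc finger protein that binds the proteasome under arsenite stress, and it had 60.6 and 60.3 CPM untreated, 58.5 and 61.7 under A66, 68.0 and 62.8 under palmitate and 76.5 and 74.7 under both agents. The libraries with both agents lay above all others, by 0.32 ± 0.049 against untreated cells (edgeR adjusted p = 1.54e-04), 0.33 ± 0.049 against A66 (adjusted p = 2.14e-04) and 0.21 ± 0.049 against palmitate (adjusted p = 0.0180). The last of these calls was lost without either library of palmitate plus A66 and without palmitate replicate 2, where it was 0.15 with an adjusted p of 0.267. Of the 12 measured genes of this list, 3 rose with both agents against untreated cells and 0 fell, against 3.79% and 3.71% of all genes. The other two were Zfand5, a proteasome activator of the same family, at 0.16 ± 0.043 (adjusted p = 0.0262), and Txnl1, a thioredoxin bound to the cap, at 0.18 ± 0.050 (adjusted p = 0.0326), and both were lost without untreated replicate 1, without either library of the combined treatment, when scaled by library size alone and with a GC correction.

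Of 9 measured regulators of proteasome genes, Mafk, a small Maf partner of Nfe2l1 and Nfe2l2, rose with both agents against untreated cells, from 20.8 and 19.1 to 24.2 and 24.2 CPM (0.28 ± 0.071, edgeR adjusted p = 0.0149). This call was lost without untreated replicate 2 and without either library of the combined treatment. Nfe2l1 itself had 852 and 808 CPM untreated, 772 and 776 under A66, 880.4 and 878 under palmitate and 864 and 859 under both agents. It was higher with palmitate and A66 than with A66 alone, by 0.16 ± 0.041 (adjusted p = 0.0381), a call lost without any 1 of the 4 libraries compared and when scaled by library size alone. Nfe2l2 had the smallest p of the list for the interaction, at 0.22 ± 0.060 (adjusted p = 0.310), and Nfe2l3 had at most 0.062 CPM in any library.

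Among genes for ubiquitin, its activating enzymes and the p97 segregase, Rps27a was higher with A66 than in untreated cells, at 480.3 and 483 against 378 and 409.8 CPM (0.29 ± 0.042, edgeR adjusted p = 3.25e-04), and with both agents, at 470.2 and 472 CPM (0.26 ± 0.044, adjusted p = 5.33e-04). Rps27a encodes ubiquitin fused to a ribosomal protein, and near-identical copies of such genes make its counts uncertain. None of the 5 shuttle factors that bring ubiquitinated proteins to the proteasome was called in any comparison, against 1.17% to 7.5% of all genes in the pairwise ones. At most 1 of the 5 in a comparison had an unadjusted p under 0.05, against 5.6% to 10.4% of all genes in each direction, so these counts say little about the list.

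The chaperonin CCT, an 8-subunit folding complex unrelated to the proteasome, was measured as a comparison complex. Its 8 genes all had fitted changes above 0 in each of the 5 pairwise comparisons, which share libraries. For palmitate plus A66 vs A66 its median was 0.080, against 0.089 for the cap, and for palmitate vs untreated 0.064, against 0.060. A lean of this size was therefore not particular to the cap. Its library means did not all separate by palmitate: palmitate replicate 2 lay at 0.019 log2 units and the A66 libraries at 0.074 and 0.073. With both agents against untreated cells 3 of 8 rose and 0 fell, against 3.79% and 3.71% of all genes, with a median of 0.13 against 0.060 for the proteasome genes. They were Cct4 (0.28 ± 0.047, edgeR adjusted p = 4.42e-04), Cct5 (0.17 ± 0.040, adjusted p = 0.0112) and Cct7 (0.16 ± 0.042, adjusted p = 0.0172). Cct5 and Cct7 were lost without either library of the combined treatment, Cct5 also without untreated replicate 2, and Cct7 without untreated replicate 1 and when scaled by library size alone.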

How the data were processed

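Poly(A) RNA of 8 libraries had been prepared with a stranded kit. Per the labels and the published methods, the authors aligned reads to GRCm38 with TopHat2 2.0.11 and made whole-number read counts for each Ensembl gene with HTSeq, deposited without normalization, whose strand setting is not given in the sources used here. The file also holds the authors' own DESeq2 fold changes and p-values for their comparisons, which were not used. Symbols came from GENCODE M21 and matched 42548 of 43629 genes.

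Counts were tested with edgeR 4.0.16 in R 4.3.3 (filterByExpr, TMM scaling, quasi-likelihood test, Benjamini-Hochberg adjustment over all genes tested, threshold 0.05). The 4 libraries without palmitate entered the A66 comparison and all 8 the others. DESeq2 1.42.0 was an alternative. Values in CPM are TMM-scaled, and log2 values per library used a prior count of 2. The members and lists were chosen with earlier results of these data known. Members were named where they passed the test or had the smallest p or the extreme level of their class, as were the catalytic subunits. Of related lists, members that passed were named. Psmd14, Psmc1 and Psmc6 against A66, Nfe2l2, Psmd12 and Ubb were named after their values were seen. Results of some genes of the related lists are not reported here. The procedure was run on simulated data, where the only pass required was recovery of changes larger than any reported here for a proteasome gene. The simulation held no shift shared by the genes of a library. It therefore does not speak for changes as small as those reported.

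Replicate numbers came from the labels. Deviations of same-numbered libraries correlated from -0.15 to 0.15 between groups, so the numbers were not taken to pair the libraries. Nothing in the labels says that replicates were separate cultures, though the methods speak of biological repeats for the A66 experiment, so p-values measure the spread between these libraries. Fits had a biological coefficient of variation of 0.038 (4 libraries) and 0.041 (8). Floors cover counting error only.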

Additional observations from a re-analysis of the deposited data

How the results depend on the processing

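The count of genes called in the comparison of both agents with untreated cells moved with single libraries. The calls of proteasome genes, 0 in 5 comparisons and 6 in that one, were otherwise within 1.5 times under alternative scalings, filters, tools and corrections, with the following exceptions. In palmitate vs untreated, 1 gene was called with no filter on low counts and 2 in the effect averaged over A66 states. In palmitate plus A66 vs palmitate, 1 gene (Psmd8) was called with no filter, with a length correction and with that correction and the replicate block. In palmitate plus A66 vs A66, 1 gene (Psmd11) was called by DESeq2, with at least 10 counts in every library and with a length correction, and 3 with only these groups in the fit. In palmitate plus A66 vs untreated, library size alone gave 3 calls and a cap median of 0.048. Scaling by library size alone shifted the median of all genes by at most 0.030. Averaged over palmitate states, the A66 medians were 0.0050 for the core and 0.0060 for assembly factors and activators, and averaged over A66 states the palmitate median of the core was 0.035. With a length correction the A66 median of the core was 0.025. The core-to-cap ratio of levels was 1.51 by the longest transcript. The cause of these differences was not tested.

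Leaving out 1 library at a time gave 0 to 4 calls for A66, 0 to 2 for palmitate, 0 to 1 for palmitate plus A66 against either agent alone and 0 to 7 against untreated. Medians of the core then ranged from -0.0069 to 0.12 for A66, from 0.024 to 0.14 for palmitate, from -0.021 to 0.032 for palmitate plus A66 vs A66, from -0.0072 to 0.091 for both agents vs untreated and from -0.13 to -0.018 for the interaction. Those of the cap ranged from -0.019 to 0.034 for A66, from 0.047 to 0.091 for palmitate, from 0.051 to 0.11 for both vs untreated and from -0.017 to 0.056 for the interaction. Those of assembly factors and activators ranged from 0.029 to 0.093 for palmitate, from -0.037 to 0.027 for both vs palmitate, from 0.0059 to 0.060 for both vs A66 and from 0.0045 to 0.10 for both vs untreated. With 1 library left out, the log2 change ranged from -0.077 to 0.53 for Psmb9, palmitate plus A66 vs A66. For Ubqln4, palmitate vs untreated, it changed sign to 0.021 without untreated replicate 1 and to 0.013 in the averaged effect.

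The replicate block on the shared numbers left 5 of the 6 calls in palmitate plus A66 vs untreated and 0 in the other comparisons. Same-numbered libraries of A66 and of palmitate plus A66 deviated against each other (correlation -0.15), and the crossed pairing of these 4 libraries, added after the data were seen, called 9 proteasome genes and 1371 of all genes. That pairing was chosen from the deviations of the same libraries, which lowers the spread left in the fit. Its calls are therefore a description and no support for a change. Counts of all genes moved over 1.5 times with no filter on low counts, to 459 from 261 for A66, 396 from 171 for palmitate, 652 from 410 and 664 from 398 for both agents against palmitate and against A66, and with only the compared groups in the fit, to 689 for the last. For the interaction, 1 gene in all was called, 21 by DESeq2 and 91 with no filter, of which 0 were proteasome genes. Library size alone moved the split of higher and lower calls with both agents vs untreated to 367 and 859, from 553 and 541.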

Other observations

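Ubb, which encodes ubiquitin, had 295 CPM in palmitate replicate 1 and 459.5 to 489 in the other 7 libraries.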
